A study of Mus musculus with 2 samples.

Results

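S-phase cells are those that copy their DNA, here called from transcripts alone, and 125 were found among the 6330 cells of at least 1000 unique molecular identifiers (UMIs, each standing for 1 captured transcript) outside mitochondrial genes. A cell was counted as an S-phase cell when at least 4 of 13 S markers (Ung, Dscc1, Ccne2, Cdc6, Chaf1b, Lig1, Tyms, Rrm2, Tk1, Pclaf, Uhrf1, Hells and Exo1) were detected and fewer than 4 of 10 G2/M markers (Top2a, Ccnb1, Cdk1, Ube2c, Birc5, Cenpf, Tpx2, Aurkb, Hmmr and Mki67) were. The counts of these 23 genes therefore chose the cells, and their levels are given below as a description only. The control library held 40 S-phase cells among 3541 cells and the Mettl3-CKO library 85 among 2789, together 1.97% of both.

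The study asked what loss of Mettl3, the enzyme that adds N6-methyladenosine (m6A) to mRNA, does to late retinogenesis. Mettl3-CKO mice carried Six3-Cre and floxed Mettl3 alleles (Six3-Cre+; Mettl3 floxed/floxed), and controls (Ctrl) were littermates. Cre acts in retinal progenitors from early embryonic stages, and the paper reports efficient loss of Mettl3 in the central retina. Whole retinas were sequenced, and the paper proposes that progenitors left at postnatal day 7 were likely at the retinal periphery. Whether each Mettl3-CKO S-phase cell had lost Mettl3 was not tested. Each group was 1 library of 2 retinas pooled from 2 pups at postnatal day 7, dissociated with papain and sequenced from the 3′ end of transcripts. With 1 library per group there was no replicate, so no test was made, and each difference is between these libraries.

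Late retinal progenitors divide at the outer edge of the neural retina, and their nuclei move inward to copy DNA and outward to divide. Before S phase the E2F factors switch on a set of genes whose products load the MCM helicase on origins, make deoxynucleotides, extend DNA with polymerases held by the PCNA clamp, and rebuild chromatin behind the fork. In the first postnatal week the last progenitors of the mouse retina leave the cycle as rods, bipolar cells and Müller glia, and progenitors and young Müller glia share many transcripts.

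The promoters of the S markers are shown because these genes defined the cells. RefSeq promoters (build GRCm38.p6, 250 bases before to 50 bases after a gene's start) matched 10 of the 13 S markers, and Dscc1, Ccne2 and Exo1 had no entry. They were searched on both strands for the E2F core as any of the words TTGGCGC or TTCCCGC or TTCGCGC or TTGCCGC, written in capitals in the windows of 70 bases below. Each window is printed 5′ to 3′ on the strand of its gene and holds at least 1 match.
Cdc6, chr11:98907981-98908050, plus strand: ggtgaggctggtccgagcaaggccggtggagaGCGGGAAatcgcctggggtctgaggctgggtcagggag
Chaf1b, chr16:93883881-93883950, plus strand: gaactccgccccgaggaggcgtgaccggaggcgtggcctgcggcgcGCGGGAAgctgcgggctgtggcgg
Lig1, chr7:13278806-13278875, plus strand: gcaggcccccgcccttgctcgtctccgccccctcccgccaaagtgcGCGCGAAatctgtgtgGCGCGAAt
Rrm2, chr12:24708004-24708073, plus strand: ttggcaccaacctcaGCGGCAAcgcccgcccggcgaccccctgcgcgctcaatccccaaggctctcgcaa
Pclaf, chr9:65890286-65890355, plus strand: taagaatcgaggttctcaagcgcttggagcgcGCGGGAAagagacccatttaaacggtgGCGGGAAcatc
Uhrf1, chr17:56303257-56303326, plus strand: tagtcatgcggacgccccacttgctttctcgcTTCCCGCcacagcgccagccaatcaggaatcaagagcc
Hells, chr19:38930915-38930984, plus strand: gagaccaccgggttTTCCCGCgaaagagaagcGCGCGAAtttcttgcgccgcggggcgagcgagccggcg

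The E2F core was found in 7 of the 10 S markers with a promoter (Cdc6, Chaf1b, Lig1, Rrm2, Pclaf, Uhrf1 and Hells), and these letters were not in the windows of Ung, Tyms and Tk1. The core was held by 10.9% of all 27025 genes with a RefSeq promoter, and by 9.57% of all 32851 promoters. It was also found in 9 of 15 origin licensing genes, 12 of 18 polymerase and clamp genes and 10 of 12 repair and checkpoint genes with a promoter, none of which chose the cells. Of the G2/M markers of the rule 4 of 8 held it, and of other G2/M genes 1 of 25. TTTGAA or TTCGAA, the cell cycle homology region, stood in 21.7% of all genes, 0 of 10 S markers, 6 of 8 G2/M markers, 19 of 25 other G2/M genes, 6 of 15 origin licensing genes and 4 of 10 chromatin assembly genes. These are matches of letters in a window and not binding sites, and base composition was not accounted for.

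Progenitor factors were detected in nearly every S-phase cell, but also in most other cells. The list held 14 progenitor factors, among them the transcription factors Pax6, Rax, Six3 and Sox2. At least 3 of them were detected in 39 of 40 S-phase cells from controls and in 84 of 85 from Mettl3-CKO. The shares were 98.4% (control) and 100% (Mettl3-CKO) in noncycling cells with Müller genes, and 94.7% and 97.9% in G2/M cells. In all cells that were neither S-phase nor G2/M they were 67.8% and 76.5%. This detection therefore does not tell S-phase cells from noncycling cells with Müller genes. In S-phase cells thinned to 2000 UMIs, at least 6 factors were detected in 27 of 34 control cells and 57 of 81 Mettl3-CKO cells. At least 3 markers of microglia, endothelium, pericytes, ganglion or horizontal cells, pigment epithelium or blood were seen in 0 S-phase cells, of astrocytes in 1 control and 1 Mettl3-CKO cell, and of amacrine cells in 2 and 3.

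Photoreceptor transcripts differed between the libraries. At least 3 of 10 rod markers were detected in 5 control cells (12.5%) and 15 Mettl3-CKO cells (17.6%), and after thinning to 2000 UMIs in 0 of 34 control cells, which by a floor of 3 counts allows a share of up to 8.82%, and in 10 of 81 Mettl3-CKO cells. Summed over S-phase cells the rod markers reached 241 counts per 1000000 UMIs (CPM) in the control library (95% interval 191 to 300) and 2889 CPM in the Mettl3-CKO library (2778 to 3004). At least 3 of 7 cone markers were seen in 0 control and 4 Mettl3-CKO cells, and at least 3 of 8 bipolar markers in 0 and 2. Cone markers summed to 78.3 CPM (51.2 to 115) and 935 CPM (872 to 1001), and the 28 Mettl3-CKO cells with exactly 4 S markers held 5644 rod and 1865 cone CPM beside 445 CPM of the S markers themselves. A pair of Mettl3-CKO cells of 71838 and 39117 UMIs, each with 4 S markers, alone held 720 and 685 of the 2537 rod UMIs of that library's S-phase cells. They met the rule with only 8 and 5 UMIs of the S markers. For comparison, the S markers summed to 1346 CPM in Mettl3-CKO S-phase cells and to 92.1 CPM in Mettl3-CKO cells that were neither S-phase nor G2/M. Whether this pair was in S phase was not tested. The doublet caller marked 0 control and 1 Mettl3-CKO S-phase cell. The 5% of cells with the highest doublet scores included 2 control and 7 Mettl3-CKO S-phase cells. All 7 of the Mettl3-CKO cells and 1 of the 2 control cells held 3 or more rod markers. Whether the rod transcripts came from doublets was not tested. The part of the rod transcripts in the other results was not tested, and the lists below are also given without the 20 cells that held 3 or more rod markers, which leaves 35 control and 70 Mettl3-CKO cells, with 71.2 and 79 cone CPM.

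**Figure D1:**
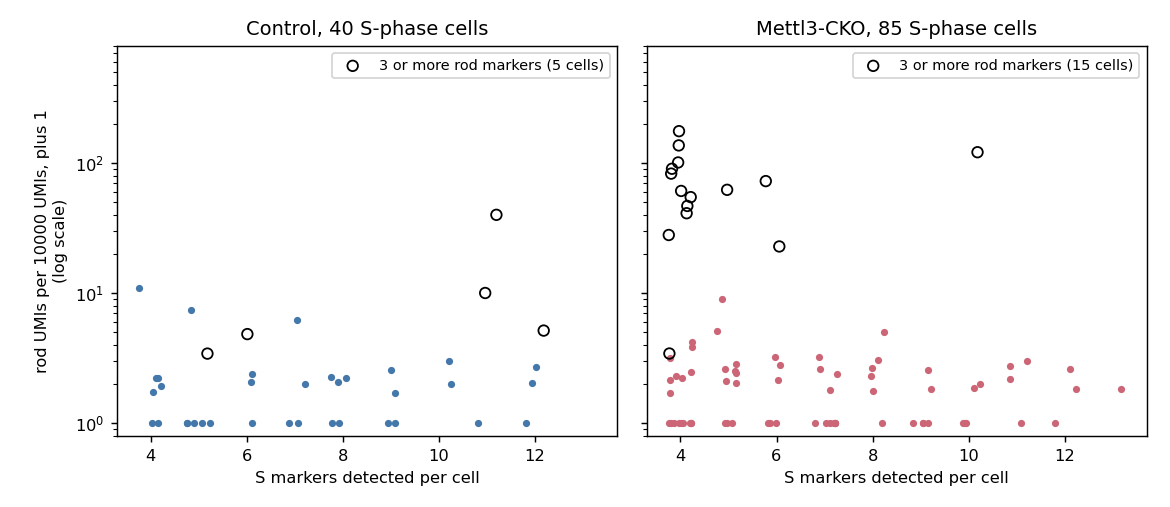
Rod UMIs per 10000 UMIs of each S-phase cell (log axis, 1 added) against the number of S markers detected, for the control (left) and Mettl3-CKO (right) library. Each point is 1 cell, moved sideways at random for visibility, and open circles are the 5 control and 15 Mettl3-CKO cells with 3 or more rod markers, of which 11 Mettl3-CKO cells held exactly 4 S markers.

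S-phase cells were deeper than cells in general, but not than the classes most like them. Their median was 8240.5 UMIs in the control library (range 1130 to 26716) and 8989 in the Mettl3-CKO library (1243 to 71838), against 4830 and 5667 over all cells of at least 1000 UMIs. The medians were 10365.5 and 10589 in G2/M cells and 8634.5 and 8342.5 in noncycling cells with Müller genes. A rule that counts detected markers also favours deep cells. The deepest 4 control and 8 Mettl3-CKO S-phase cells gave 21.1% and 26.2% of their library's S-phase UMIs. No barcode of an S-phase cell occurred in both libraries, although 5 barcodes of other cells did. Mettl3 itself gave 11 UMIs in control and 17 in Mettl3-CKO S-phase cells (33.1 and 19.4 CPM, log2 ratio -0.78, interval -1.95 to 0.46). The gene lies on chr14:52294841-52305128 and is overlapped by Tox4 on the other strand, and since reads come from the 3′ end, whether they fall within the deleted part is not given, so this level does not check the label.

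The control S-phase cells held between 4 and 12 S markers with a median of 7, and the Mettl3-CKO cells between 4 and 13 with a median of 6. Exactly 4 markers were held by 7 control and 28 Mettl3-CKO cells just inside the threshold, and 3 markers by 32 control and 52 Mettl3-CKO cells just outside it. On the G2/M side, 8 control and 14 Mettl3-CKO cells held 3 G2/M markers, and 8 and 11 cells with at least 4 S markers held exactly 4. No G2/M marker was seen in 16 control and 35 Mettl3-CKO S-phase cells. The map of both marker counts shows that S-phase cells continue without a gap into cells with fewer S markers and into cells with more G2/M markers.

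**Figure D2:**
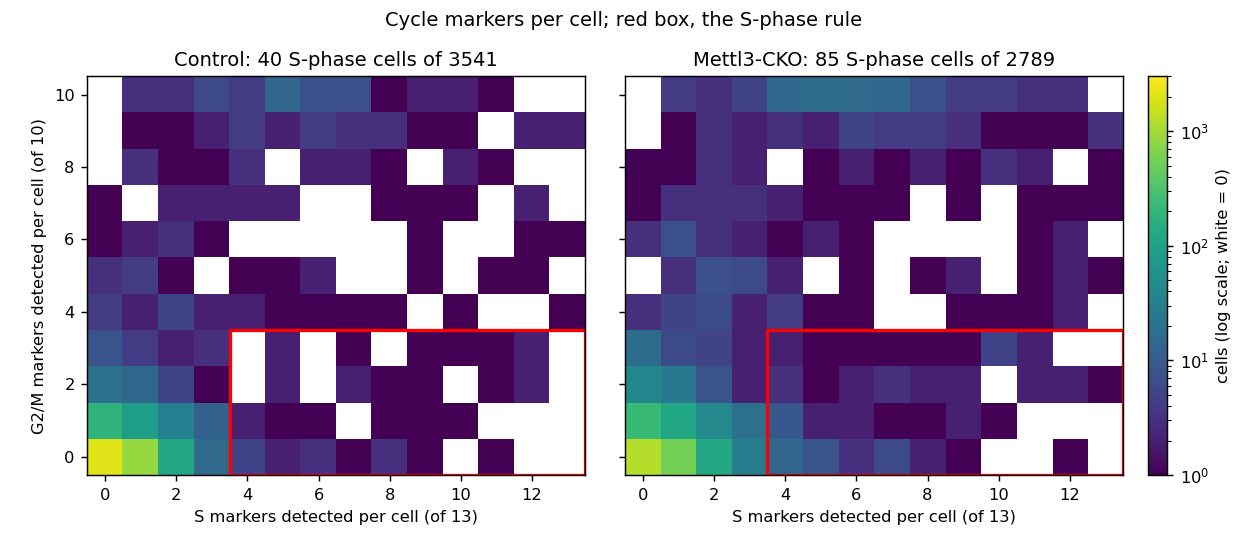
Number of cells (colour, log scale) by the number of S markers (x axis) and G2/M markers (y axis) detected per cell, in the control (left) and Mettl3-CKO (right) library. The red box is the S-phase rule and holds 40 of 3541 control cells and 85 of 2789 Mettl3-CKO cells.

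The share of S-phase cells was 2.70 times as high in the Mettl3-CKO library. They were 1.13% of control cells (exact binomial 95% interval 0.808 to 1.54) and 3.05% of Mettl3-CKO cells (2.44 to 3.75), with an interval of the ratio of 1.86 to 3.92. This and every other interval covers counting error only and not the spread between animals. The ratio lay between 2.19 and 2.85 under 10 alternatives, which included other marker thresholds, thinning all cells to 4000 UMIs (2.29) and leaving out cells with 3 or more rod markers (2.22). Thinning together with another marker threshold gave values from 1.79 (at least 2 S markers, 4000 UMIs) to 2.69 (at least 5 S markers, 2000 UMIs and fewer than 3 G2/M markers). The first and second part of each file gave 1.08% and 1.18% in the control and 2.72% and 3.37% in the Mettl3-CKO library.

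G2/M cells, those with at least 4 G2/M markers, were also more frequent, at 4.29% (152 cells) and 8.71% (243 cells), a ratio of 2.03 (1.67 to 2.47). S-phase cells were therefore 20.8% of the 192 cycling control cells and 25.9% of the 328 cycling Mettl3-CKO cells. The ratio of these shares was 1.24 with an interval of 0.893 to 1.73, so a difference in the balance of S phase and G2/M was not detectable with these cell numbers, and thinning with other thresholds gave ratios from 0.962 to 1.35. Among G2/M cells, 64.5% of control and 66.3% of Mettl3-CKO cells also held at least 4 S markers. Cells with at least 4 S markers whatever their G2/M markers numbered 138 and 246, a ratio of shares of 2.26 (1.85 to 2.77).

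Within the control library, most lists of replication genes that did not choose the cells were higher in S-phase than in G2/M cells. All 76 genes of these lists together were not, at 0.958 times the G2/M level (0.928 to 0.99), although 52 of 74 members were higher. In the Mettl3-CKO library they stood at 0.719 times (0.702 to 0.736), with 38 of 75 higher. The S markers of the rule stood at 1.08 times (0.995 to 1.17) in the control and 0.72 times (0.675 to 0.767) in the Mettl3-CKO library. Origin licensing and helicase genes summed to 2838 CPM in S-phase cells, 1.81 times the G2/M level (interval 1.68 to 1.95), and 13 of the 19 members with at least 20 UMIs were higher in S phase. Polymerase and clamp genes were 1.72 times as high (1.59 to 1.86), with 20 of 21 members higher, and genes of nucleotide synthesis 1.44 times (1.30 to 1.59). In Mettl3-CKO cells the same lists stood closer to G2/M, at 1.18 (1.11 to 1.25), 1.16 (1.09 to 1.23) and 1.05 times (0.97 to 1.13). Without rod-marker cells in either phase the ratios were 1.75, 1.64 and 1.28 in the control and 1.40 (1.32 to 1.49), 1.36 (1.27 to 1.45) and 1.22 (1.12 to 1.33) in the Mettl3-CKO library. Repair and checkpoint genes stood at 1.16 times (1.04 to 1.28) in the control and 0.749 times (0.695 to 0.806) in the Mettl3-CKO library, or at 1.07 and 0.866 without rod-marker cells.

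Chromatin assembly genes went the other way as a sum, at 0.559 times the G2/M level in the control and 0.49 times in the Mettl3-CKO library. Their members were split, with 5 of 11 higher in S phase in the control and 4 of 11 in the Mettl3-CKO library. Without rod-marker cells these counts were 4 and 6 of 11. Replication histones and the other G2/M genes were far lower in S-phase cells. Of the G2/M cells set against them, 64.5% (control) and 66.3% (Mettl3-CKO) also held at least 4 S markers. Which part of S phase each set holds was not tested. Replication histones, the core and linker histones made for new chromatin and caught here only where their transcripts carry a poly(A) tail, were at 0.123 (control) and 0.106 (Mettl3-CKO) of the G2/M level, and 28 of 28 other G2/M genes were lower in both libraries. In both libraries S-phase cells with 3 G2/M markers held more of the replication histones than those with none, at 877 and 506 CPM in the control and 920 and 336 CPM in the Mettl3-CKO library.

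**Figure D3:**
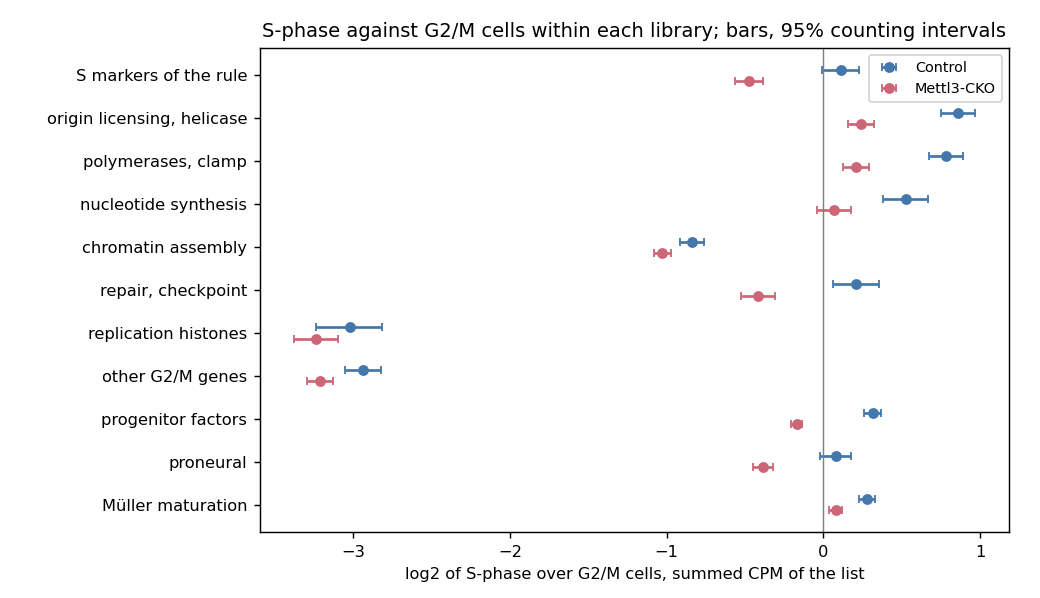
Log2 ratio of S-phase over G2/M cells for the summed CPM of each gene list (x axis), in the control (blue) and Mettl3-CKO (red) library. Points are ratios and bars 95% counting intervals. Origin licensing and polymerase genes lie right of 0 in both libraries, and replication histones and other G2/M genes lie near -3.

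Each S marker was lower in Mettl3-CKO S-phase cells, as a sum over cells, and this describes values that chose the cells. The log2 ratios of the 13 ran from -1.47 for Ccne2, the cyclin that drives entry into S phase (66.3 CPM in control, 23.9 in Mettl3-CKO, 22 and 21 UMIs), to -0.19 for Pclaf, a PCNA-bound factor (217 and 190 CPM). Cdc6, which loads the helicase, stood at 99.4 and 38.7 CPM, and Uhrf1, which carries DNA methylation over to the new strand, at 175 and 71.7 CPM. The thymidylate synthase gene Tyms and the DNA ligase gene Lig1 each had 95 control UMIs, against 128 and 173 in Mettl3-CKO. Rrm2 (nucleotide reduction), Tk1 (thymidine salvage), Ung (uracil removal), Hells (chromatin remodelling), Chaf1b (histone deposition), Dscc1 (clamp loading) and Exo1 (end resection) lay between -1.30 and -0.40. Without rod-marker cells the 13 log2 ratios ran from -1.21 to 0.27 with a median of -0.26, 12 of them below 0.

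Of the 76 genes on 5 replication lists outside the rule, 68 had at least 20 UMIs, and 65 of these were lower in Mettl3-CKO S-phase cells (median log2 ratio -0.52, where all 7944 genes with at least 20 UMIs had a median of 0.08). At least 1.5-fold lower were 31 of the 68 and at least 1.5-fold higher 2, where over all genes with at least 20 UMIs 9.77% were that much lower and 21.5% that much higher. The value moved with the rod-marker cells. Without them 49 of 67 genes were lower, the median was -0.19, 11 were at least 1.5-fold lower and 2 higher, and over all genes 10.6% were at least 1.5-fold lower and 14.5% higher. In cells of at least 7 S markers (22 control, 37 Mettl3-CKO), origin licensing stood at 3612 CPM (3346 to 3893) and 2923 CPM (2749 to 3106). In cells of exactly 4 it stood at 1311 CPM (1078 to 1581) and 652 CPM (574 to 738), in the latter beside 5644 rod CPM.

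Scaling by median-of-ratios size factors in place of total UMIs raised each log2 ratio by 0.12, put the replication median at -0.40, and moved 11 listed genes with at least 20 UMIs across 0, among them Pax6 and Glul.

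Origin licensing and helicase genes were lower for each of the 17 members with at least 20 UMIs (median -0.66). Mcm6, a subunit of the replicative helicase and the member with most UMIs, had 147 UMIs in control (443 CPM, interval 374 to 521) and 252 in Mettl3-CKO (287 CPM, 253 to 325). The extremes were Gins1, a subunit of the active helicase (log2 -1.12), and Gmnn, which blocks a second licensing of origins (-0.15). Without rod-marker cells Mcm6 was at -0.31 (-0.62 to 0.01) and Gmnn at 0.42 (-0.12 to 0.99), on the other side of 0, and 13 of 16 members stayed below 0 with a median of -0.27.

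Polymerase and clamp genes were lower for 20 of 20 members (median -0.54). Pcna, the sliding clamp, had 165 and 314 UMIs, 497 and 358 CPM, and a log2 ratio of -0.48 (-0.75 to -0.19). Pole, the catalytic subunit of the leading strand polymerase on chr5:110286306-110337474, was the lowest at -1.91 (-3.10 to -0.75) with 17 and 12 UMIs, and Rfc3, a clamp loader subunit, the nearest to 0 at -0.22. Without rod-marker cells 18 of 20 were lower with a median of -0.23, and Pole was at -1.70 (-3.01 to -0.45).

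Nucleotide synthesis genes had a median of -0.66 with 6 of 7 lower. Dut, which clears dUTP, was the most abundant with 777 and 483 CPM (log2 -0.69, interval -0.91 to -0.46), and Shmt1, of folate metabolism, the lowest at -0.92. Dck, which salvages deoxycytidine, was the exception, with 10 control UMIs and 49 Mettl3-CKO UMIs (30.1 and 55.8 CPM, log2 0.89, interval -0.11 to 2.04). It was higher again without rod-marker cells (1.47, 0.30 to 2.87), where 4 of 7 members were lower with a median of -0.19.

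Chromatin assembly and repair genes lay closer to 0. Chromatin assembly had a median of -0.30 with 10 of 11 lower, from Asf1b (-1.31), a histone chaperone, to Supt16 (0.13), a subunit of FACT. H2afz, a histone variant, gave most UMIs and stood at -0.21 (-0.34 to -0.08) in all S-phase cells but at 0.20 (0.05 to 0.34) without rod-marker cells. Repair and checkpoint genes had a median of -0.37 with 12 of 13 lower, from Clspn (-1.29), which carries the checkpoint signal at forks, to Msh6 (1.10, interval 0.06 to 2.31), of mismatch repair. Msh6 had 9 control UMIs in 7 cells and 51 Mettl3-CKO UMIs in 36 cells. Brca2, which loads the recombinase, had 27 and 56 UMIs (log2 -0.35, -1.04 to 0.37). Without rod-marker cells the medians of the lists were -0.14 and -0.04, and Msh6 stood at 1.24 (0.19 to 2.46).

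**Figure D4:**
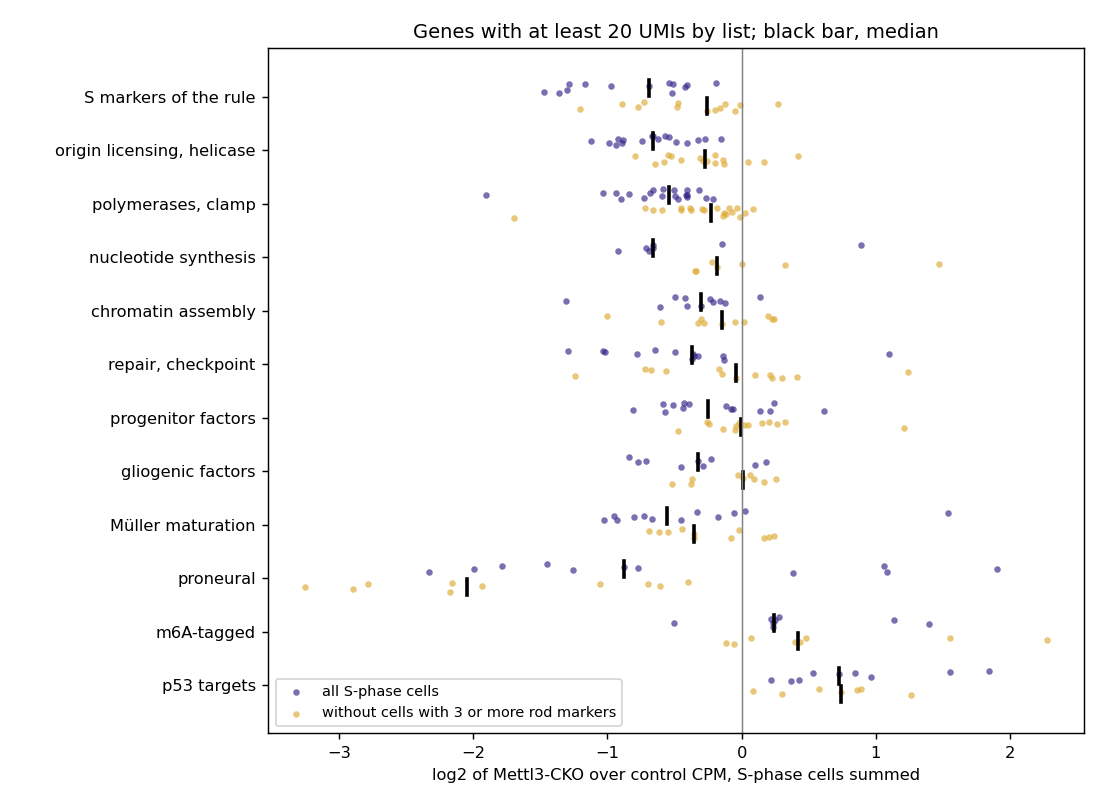
Log2 ratio of Mettl3-CKO over control CPM (x axis) for each gene with at least 20 UMIs in S-phase cells, by list (y axis), over all S-phase cells (dark) and without cells that held 3 or more rod markers (yellow). Points are genes and black bars medians. Replication lists lie left of 0 and move toward 0 without rod-marker cells, the p53 targets and most m6A-tagged genes lie right of 0, and proneural genes move to the left.

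Regulators of the G1 to S transition had a median of -0.39 over 17 genes, 14 of them lower, and of -0.11 with 11 lower without rod-marker cells. Ccnd1, the main D-type cyclin of retinal progenitors, gave 1271 and 2559 UMIs (3830 and 2914 CPM, log2 -0.39, interval -0.49 to -0.30), but stood at -0.05 (-0.15 to 0.06) without rod-marker cells. Ccnd2 was the lowest at -2.51, and all its UMIs came from 1 control cell (41) and 1 Mettl3-CKO cell (19). Rb1, the pocket protein that holds E2F in check, was the highest at 1.03 (-0.37 to 2.76) with 5 and 27 UMIs. Of the genes of cell cycle exit 4 of 8 were higher (median 0.07), but 2 of 8 without rod-marker cells (median -0.42), from Gadd45g (645 and 162 CPM) to Cdkn2d (log2 0.23), a CDK inhibitor. Of the G2/M genes that the study named, Mki67 gave 19 and 27 UMIs (-0.90, interval -1.80 to 0.03), Ccna2 3 and 6, and Cdca8 4 and 7, too few for a direction.

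Progenitor factors were nearly level once rod-marker cells were left out. Over all S-phase cells 10 of 14 were lower with a median of -0.25, and without those cells 7 of 14 were lower with a median of 0.00 and a summed log2 ratio of -0.01 (-0.07 to 0.05). Six3, a factor of the retinal field that the study named, gave 291 and 891 UMIs (877 and 1015 CPM, log2 0.21, interval 0.02 to 0.41) and 0.27 (0.06 to 0.48) without rod-marker cells. Fgf15, a growth factor of progenitors, was the highest, with 69.3 and 106 CPM (0.61, -0.06 to 1.34). Hes5, a Notch target, was the lowest, with 834 and 1261 UMIs (2513 and 1436 CPM, -0.81, -0.93 to -0.68), and was nearer to 0 without rod-marker cells (-0.24, -0.38 to -0.10). Sox11, a neurogenic SOX factor also named by the study, had 104 and 435 UMIs (log2 0.66, 0.35 to 0.98), and 134 of the latter came from 1 cell.

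Notch and gliogenic genes showed the same shift with the choice of cells. Of 12 Notch pathway genes 9 were lower (median -0.43), from the ligand Dll1 (-2.33, -3.19 to -1.51, 38 and 20 UMIs) to the target Hey1 (0.42, -0.57 to 1.54), and without rod-marker cells 6 of 11 were lower (median -0.05). Of 9 gliogenic factors 7 were lower (median -0.33), with Id1, an inhibitor of proneural factors, lowest at -0.84 (-1.09 to -0.59) and Nfix, a nuclear factor I gene of late progenitors, highest at 0.18 (-0.12 to 0.49). Without rod-marker cells 4 of 9 were lower with a median of 0.01, and Id1 was at -0.38 (-0.65 to -0.10).

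Transcripts of Müller glia maturation were lower in Mettl3-CKO S-phase cells. The 14 genes summed to 11383 CPM in control (11023 to 11752) and 6940 CPM in Mettl3-CKO cells (6767 to 7117), a log2 ratio of -0.71 (-0.77 to -0.66), and 10 of 12 members with at least 20 UMIs were lower. Per cell thinned to 2000 UMIs, the list gave between 2 and 42 UMIs with a median of 22.5 in control cells and between 1 and 42 with a median of 15 in Mettl3-CKO cells. The groups overlapped over nearly the whole range. The list stood at -0.38 (-0.44 to -0.31) without rod-marker cells and at -0.39 (-0.47 to -0.31) in cells of at least 7 S markers.

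Dbi, the acyl-CoA binding protein abundant in glia, was among the 8 lowest genes when genes of at least 100 UMIs were ranked by the interval limit nearer to 1, with 1768 and 2420 UMIs (5327 and 2756 CPM, ratio 0.517, interval 0.486 to 0.55), and was detected in all 40 and all 85 cells. Rlbp1, the retinaldehyde binding protein of the visual cycle in Müller glia, lay on chr7:79374870-79387048 and stood at 732 and 360 CPM (log2 -1.02, -1.27 to -0.78). Both stayed below 0 without rod-marker cells, at -0.55 (-0.64 to -0.45) and -0.69 (-0.94 to -0.43). Glul, the glutamine synthetase gene, differed from them at 331 and 319 CPM (-0.06, -0.38 to 0.28). Clu, a secreted chaperone, was at 0 UMIs in control and 23 in Mettl3-CKO cells, a log2 ratio of at least 1.53 against a floor of 3 control counts.

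By detection, at least 4 of the 14 Müller genes were seen in 33 of 34 control and 69 of 81 Mettl3-CKO cells thinned to 2000 UMIs, a ratio of shares of 0.878 (0.788 to 0.978). Without thinning the shares were 38 of 40 and 84 of 85, a ratio of 1.04 (0.965 to 1.12), on the other side of 1. In noncycling cells with at least 7 of these genes, a class chosen partly on the list, 12 of 13 members were lower in the Mettl3-CKO library, with a median of -0.46.

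Proneural genes split by gene and by cell. At least 3 of 15 were seen in 13 of 34 control cells and 22 of 81 Mettl3-CKO cells after thinning (ratio 0.71, 0.407 to 1.24) and in 24 of 40 and 55 of 85 without it (1.08, 0.801 to 1.45), so no difference in this share was detectable. Of 11 members with at least 20 UMIs 7 were lower, and the median was -0.87. Dll1 (values above) was the lowest and Neurod1, a factor of the photoreceptor lineage, the highest, at 214 and 802 CPM (1.91, 1.55 to 2.28).

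Neurod1 and Otx2 changed sides with the cells kept. Both are genes of the photoreceptor lineage and the cells were left out by rod markers, so their fall is not independent of that choice. Neurod1 had 71 UMIs in control and 704 in Mettl3-CKO S-phase cells, but without the rod-marker cells it had 66 and 15 UMIs (log2 -3.25, -4.17 to -2.43). Otx2, which specifies photoreceptors and bipolar cells, went from 1.08 (0.76 to 1.42) to -2.90 (-3.57 to -2.27), with 93 control UMIs against 27. Without rod-marker cells 10 of 10 proneural genes were lower with a median of -2.04, which includes Neurod1 and Otx2 and rests on the same choice of cells. Control UMIs were concentrated, since 46 of 71 for Neurod1 and 90 of 214 for Gadd45g came from 1 cell. In G2/M cells 11 of 15 members were higher in the Mettl3-CKO library, with a median of 0.24.

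The 8 m6A-tagged genes, which the study chose on these libraries and which are therefore no independent evidence of a direction, summed to 1012 CPM (907 to 1127) in control and 1398 CPM (1321 to 1479) in Mettl3-CKO S-phase cells. The log2 ratio of the sums was 0.47 (0.29 to 0.64), 7 of 8 were higher and the median was 0.24. At least 1.5-fold higher were 2 of 8, against 21.5% of all genes with at least 20 UMIs. Zfp292, a zinc finger gene on chr4:34803113-34882960, led them with 47 and 327 UMIs (142 and 372 CPM, 2.63-fold, interval 1.93 to 3.65), and no cell gave more than 5 control or 22 Mettl3-CKO UMIs. It was also the first of the ranked genes without rod-marker cells (log2 1.56, 1.06 to 2.08), a ranking that left out sex-linked, mitochondrial and predicted genes.

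The other members were smaller or shallower. Sulf2, a sulfatase of heparan sulfate, had 5 and 29 UMIs (1.13, -0.25 to 2.86). Apex1 (base excision repair), Bcl7a (a chromatin remodeller subunit), Ckap4 (a membrane protein of the endoplasmic reticulum), Nxt1 (mRNA export) and Traf4 (a signalling adaptor) lay between 0.22 and 0.28, with intervals on both sides of 0. Rap2b, a small GTPase, was lower at -0.50 (-1.46 to 0.51). Per cell thinned to 2000 UMIs the list gave a median of 1.5 UMIs (0 to 7) in control and 3 (0 to 17) in Mettl3-CKO cells.

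The summed ratio of the m6A-tagged genes was 0.60 (0.41 to 0.80) without rod-marker cells, where 6 of 8 were higher. In the other cells the list stood at 0.78 (0.69 to 0.86) in G2/M cells, 0.75 (0.69 to 0.82) in noncycling cells with Müller genes and 0.38 (0.34 to 0.42) in noncycling cells with proneural genes. These ratios rest on the same 2 libraries. The genes of the m6A machinery were split, with 8 of 15 higher and a median of 0.05, Mettl3 the lowest and Virma, a scaffold of the writer complex, the highest (18.1 and 52.4 CPM, 1.53, 0.30 to 3.05). Ythdf2, a reader that speeds mRNA decay and is named here after its value was seen, had 31 and 161 UMIs (0.97, 0.41 to 1.58).

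Targets of p53, the factor that halts the cycle after DNA damage, were higher for 9 of 9 genes with at least 20 UMIs (median 0.73), and 5 of the 9 were at least 1.5-fold higher, against 21.5% of all such genes. In cells of at least 5 S markers 3 of 6 were higher. The list summed to 407 CPM (341 to 481) in control and 577 CPM (528 to 630) in Mettl3-CKO S-phase cells, a log2 ratio of 0.51 (0.23 to 0.79), and 0.48 (0.17 to 0.80) without rod-marker cells. Counts were low. Bax, which opens mitochondria in apoptosis, had the most, with 45 and 160 UMIs (0.43, -0.06 to 0.94). Plk2, a stress-responsive kinase, was the highest at 1.84 (-0.21 to 4.99) from 2 and 19 UMIs, and Cdkn1a, which encodes the CDK inhibitor p21, the lowest at 0.22 (-0.44 to 0.92) from 26 and 80 UMIs. In cells of at least 7 S markers the list was at 0.14 (-0.23 to 0.53), a difference not detectable at that depth. In the other cells it stood at 0.68 (0.55 to 0.82) in G2/M cells and 1.16 (1.07 to 1.26) in noncycling cells with Müller genes.

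**Figure D5:**
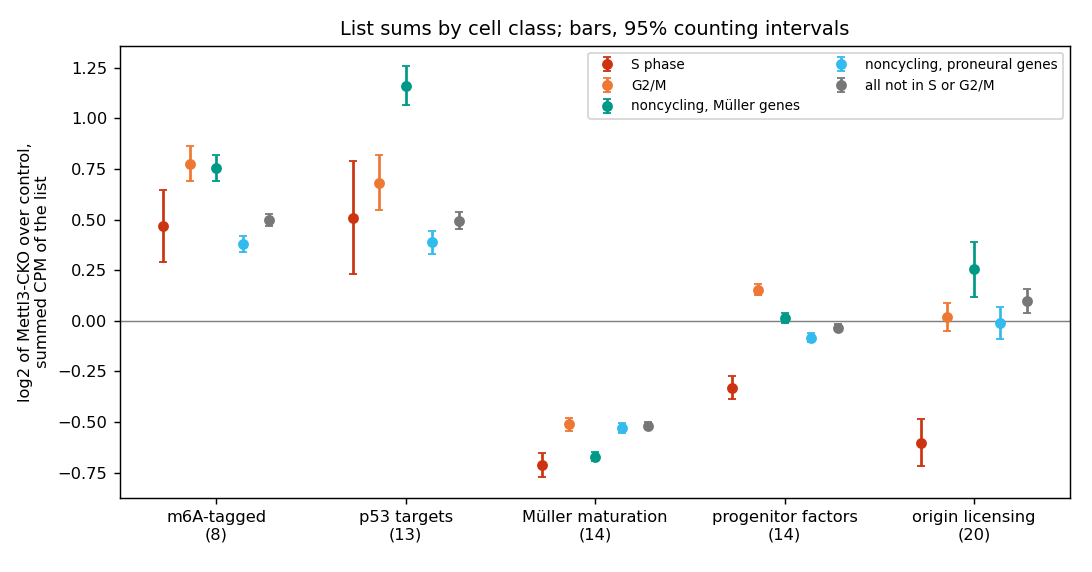
Log2 ratio of Mettl3-CKO over control (y axis) for the summed CPM of 5 gene lists (x axis, number of genes in brackets) in S-phase cells and in 4 other sets of cells (colours, of which the last holds both noncycling sets). Bars are 95% counting intervals. Müller maturation lies below 0 and the m6A-tagged genes and p53 targets above 0 in each set, whereas origin licensing and progenitor factors lie below -0.25 in S-phase cells only among the sets shown, but at -0.23 and -0.01 in S-phase cells without the rod-marker cells, which are not drawn.

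Over all genes with at least 100 UMIs in S-phase cells, 240 of 2329 (10.3%) were at least 1.5-fold higher and 111 (4.77%) at least 1.5-fold lower in the Mettl3-CKO library. Ranked without sex-linked, mitochondrial and predicted genes, the 8 highest were all photoreceptor genes (Rp1, Nr2e3, Tulp1, Gngt2, Cplx3, Pdc, Sag and Rom1). Nr2e3, which fixes rod identity, had 11 and 632 UMIs, and Rp1, of the outer segment axoneme, 1 and 283. Without rod-marker cells Rp1 had 1 and 3 UMIs and Nr2e3 3 and 13, but both are rod markers that chose the cells left out. The counts of genes past 1.5-fold were then 71 (4.32%) and 46 (2.8%) of 1642.

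The 8 lowest genes of this ranking were Rgs16, Gadd45g, Crip1, Fn1, S100a10, Miat, Dbi and Rlbp1. Rgs16, a brake on G-protein signalling on chr1:153740349-153745468, had 122 UMIs in 20 control cells and 52 in 17 Mettl3-CKO cells (368 and 59.2 CPM, log2 -2.63, -3.13 to -2.15), and Gadd45g, a growth arrest gene of newly exiting progenitors, 214 and 142 UMIs. Both kept their direction without rod-marker cells, at -2.43 (-2.95 to -1.93) and -2.17 (-2.53 to -1.82). In G2/M cells they stood at 0.39 and 0.18, on the other side of 0.

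Single cells decided others of these values. Of the 124 control UMIs of Crip1 117 came from 1 cell, and of the 76 of Fn1, the fibronectin gene, 55 came from 1 cell. In cells of at least 5 S markers Crip1 stood at 1.54. Miat, a long noncoding RNA of retinal progenitors that overlaps other annotated transcripts, was spread over 31 of 40 and 56 of 85 cells with 184 and 216 UMIs (554 and 246 CPM, -1.17, -1.46 to -0.88).

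By the same ranking without rod-marker cells, applied after the values were seen, the highest genes were Zfp292, Mrps34, Mrpl43, RF01962, Mt1, Basp1, Tubb4b and Cyr61. Mrps34 and Mrpl43, both of the mitochondrial ribosome, stood at 1.46 (0.73 to 2.27) and 1.29 (0.72 to 1.91) there and at 1.35 and 1.09 over all S-phase cells, and both share exon bases with other genes. Mt1, a metallothionein, had 159 and 595 UMIs (0.50, 0.25 to 0.76), and Cyr61, a secreted matrix protein, 77 and 310 (0.61, 0.24 to 0.98). The lowest were Otx2, Rgs16, Gadd45g, Crip1, Fn1, Dusp1, S100a10 and Sox4. Dusp1, an immediate early phosphatase, had 136 and 170 UMIs (-1.08, -1.42 to -0.75) and is on the list of 15 dissociation response genes, of which 10 of 12 were lower with a median of -0.31, or 8 of 12 with a median of -0.15 without rod-marker cells.

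Sex differed between the libraries. Xist, transcribed from the inactive X chromosome, was seen in 0 of 40 control and 50 of 85 Mettl3-CKO S-phase cells, and genotype and sex cannot be told apart in the 50. Of these 50 cells 10 also held Y-linked UMIs. The 22 Mettl3-CKO cells with Y-linked UMIs and no Xist can be set against the 31 such cells among the 40 of the control. In these 22 cells against all control S-phase cells, Müller maturation summed to a log2 ratio of -0.56 (-0.65 to -0.47), the m6A-tagged genes to 0.64 (0.40 to 0.86), the p53 targets to 0.54 (0.16 to 0.91) and origin licensing to -0.51 (-0.68 to -0.33). In the 50 cells with Xist these sums were -0.79, 0.40, 0.51 and -0.64, with rod markers at 3961 CPM against 521 CPM in the 22 and cone markers at 946 CPM against 1232 CPM.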

How the data were processed

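Single-cell RNA was sequenced from 1 control and 1 Mettl3-CKO library of the postnatal day 7 retina. The authors deposited UMI counts per gene and cell, not normalized, and their processing notes name Cell Ranger 3.1.0 and Seurat 3.1. Reads were aligned to GRCm38, and the strand setting of the counting is not given in the sources used here. Both matrices as read end before the number of entries on their size lines (8885792 of 13377095 and 7874177 of 17695523), so 3994 of 5995 control and 3109 of 6992 Mettl3-CKO barcodes were complete, and the others were not analysed here.

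UMIs were summed over S-phase cells, without 13 mitochondrial genes, and divided by their total (331892 control and 878182 Mettl3-CKO UMIs). Ratios carry exact conditional binomial 95% intervals, levels exact Poisson, shares Clopper-Pearson and ratios of shares Katz intervals. A gene at 0 in 1 library was set to a floor of 3 counts. Lists use genes of at least 20 UMIs over both libraries, and counts over all genes at least 100. Python 3.11.15, numpy 2.4.6, scipy 1.17.1, pandas 2.3.3, scanpy 1.11.5 (Scrublet) and matplotlib 3.10.9 were used, and the scripts were tested on simulated data. Scrublet called 55 control and 10 Mettl3-CKO cells, 0 and 1 of them in S phase. None of the S-phase cells failed the study's cell filter as stated.

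The members, gene lists and comparisons were chosen with earlier results of these data known. Named were the 13 S markers, the extremes of each list, genes the study named, and the 8 highest and 8 lowest ratios by the interval limit nearer to 1 among genes of at least 100 UMIs, seen in at least 10% of S-phase cells of 1 library and on the same side of 1 when libraries were scaled by median-of-ratios size factors. Mitochondrial, sex-linked and predicted genes were not named, and 1 gene that met the rule is not reported here. The members with most UMIs, and Otx2, Glul and Ythdf2 were added after their values were seen, as were the ranking without rod-marker cells and the alternatives that leave out rod-marker cells or the 5% highest doublet scores, and the ratios of S-phase over G2/M cells without rod-marker cells. Positions are GENCODE M21 (GRCm38), and of 102 named genes 45 share exon bases with another gene, 43 on the opposite strand, whose reads could be mixed.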

Additional observations from a re-analysis of the deposited data

Results flagged for a closer look

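Xist, the RNA of the inactive X chromosome and a member of a list of 6 sex-linked genes, gave 1033 UMIs in Mettl3-CKO S-phase cells. It gave 0 in control S-phase cells, so the signal was above that of the control library. It was seen in 50 of the 85 Mettl3-CKO S-phase cells, 10 of which also held Y-linked UMIs. Sex and genotype cannot be told apart in these cells. No group held enough samples for a search for samples that stand apart.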

How the results depend on the processing

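The ratio of S-phase shares kept its direction under all 10 alternatives and the ratio of S-phase shares of cycling cells stayed between 1.07 and 1.37 under its 10. The replication and Müller medians stayed below 0, and the m6A-tagged and p53 medians above 0, under all 13 alternatives of each. The following values moved by more than counting error, or by over 1.5 times for a count, and the cause was not tested. With at least 3 S markers, the ratio of Müller shares was 0.99, the replication median was -0.34, the m6A-tagged median was 0.47, the progenitor median was -0.067, the proneural median was -0.35 and the Müller median was -0.25. There Tulp1 was at -0.13, Gngt2 was at -0.18, Pdc was at -0.16, Sag was at -0.51, Gngt1 was at -0.30, Pde6h was at -1.20, Opn1sw was at -1.42 and Kdr was at 0.099, across 0. With at least 5 S markers, the replication median was -0.23, the m6A-tagged median was 0.42, the p53 median was 0.34, the progenitor median was 0.12, the proneural median was -1.30, the Müller median was -0.41, the count of genes at least 1.5-fold higher was 53 and the count at least 1.5-fold lower was 45. There Crip1 was at 1.54, Pde6h was at -0.59, Slc6a9 was at -0.00089 and Otx2 was at -1.13, across 0. Clu and Pcp2, which had no control UMIs, were both at -0.26 against the floor of 3 control counts. Such a value is a lower limit of the ratio and shows no change of side. With Mettl3-CKO cells that held Xist, the replication median was -0.64, the p53 median was 0.44, the progenitor median was -0.33 and the Müller median was -0.80. With Mettl3-CKO cells that held Y-linked UMIs and no Xist, the ratio of proneural shares was 0.131, the replication median was -0.45, the progenitor median was 0.088, the proneural median was -2.92, the Müller median was -0.21, the count of genes at least 1.5-fold higher was 35 and the count at least 1.5-fold lower was 50. There Exo1 was at 0.052, Neurod1 was at -0.81, Kdr was at 0.12 and Otx2 was at -3.15, across 0. With cells thinned to 2000 UMIs, the m6A-tagged median was 0.55, the p53 median was 0.070, the progenitor median was 0.060, the proneural median was 0.21, the Müller median was -0.48, the count of genes at least 1.5-fold higher was 12 and the count at least 1.5-fold lower was 17. There Dscc1 was at 0.55, Lig1 was at 0.21, Top2a was at 1.21, Asf1b was at 0.33, Slc6a9 was at -1.25 and Kdr was at 0.32, across 0. Clu was at -0.84 and Pcp2 at -0.25, again lower limits against the floor. With the minimum of 1 UMI in each library in place of the larger minimum, the replication median was -0.58, the proneural median was -1.07, the Müller median was -0.66, the count of genes at least 1.5-fold higher was 2745 and the count at least 1.5-fold lower was 1987. With the mean of per-cell CPM, the replication median was -0.63, the m6A-tagged median was 0.45, the progenitor median was -0.18, the proneural median was -0.62 and the Müller median was -0.34. With median-of-ratios scaling, the replication median was -0.40, the progenitor median was -0.13, the proneural median was -0.75, the Müller median was -0.43 and the count at least 1.5-fold lower was 65. Without thinning, the ratio of Müller shares was 1.04. Without the 5% of cells with the highest doublet scores, the replication median was -0.44, the progenitor median was -0.15, the proneural median was -0.34 and the Müller median was -0.66. There Sox4 was at 0.035, across 0. Without cells of 3 or more rod markers, the replication median was -0.19, the progenitor median was -0.0023, the proneural median was -2.04, the Müller median was -0.35, the count of genes at least 1.5-fold higher was 71 and the count at least 1.5-fold lower was 46. There Tulp1 was at -0.53, Sag was at -0.63, Rom1 was at -0.91, Neurod1 was at -3.25, Gngt1 was at -1.11, Pde6h was at -0.70, Opn1sw was at -0.53, Kdr was at 0.10 and Otx2 was at -2.90, across 0. Sag and Gngt1 are rod markers that chose the cells left out. Pcp2 was at -0.70, a lower limit against the floor. Single named genes moved out of their counting interval in 171 other cases, 20 of them across 0, and 34 more values crossed 0 within it. No library could be left out, since each group was 1 library. No paired analysis was possible because each group has 1 library and no test was made. Depth limits the genes of under 20 UMIs, and 34 control and 81 Mettl3-CKO cells bound every statement per thinned cell.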
